A study of Mus musculus with 4 samples.

Results

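Glutathione transferases and targets of the transcription factor Nrf2 were followed in single-nucleus RNA libraries of mouse liver. The 10 genes were taken by symbol from the feature list of the deposited matrices, and all 10 were found among 32285 listed genes. They were the mu-class transferases Gstm1, Gstm2, Gstm3 and Gstm4, the alpha-class Gsta3, the pi-class Gstp1, the theta-class Gstt1, the glutathione synthesis gene Gclc, the quinone reductase gene Nqo1, and Nfe2l2, which encodes Nrf2 itself. The aged group had 2 libraries from mice of 30 months and the young group had 2 libraries from mice of 2 months. All libraries came from frozen liver of male wild-type C57BL6/J mice, an inbred laboratory strain, with no treatment stated. Counts were of unique molecular identifiers (UMIs), each marking 1 captured RNA molecule, summed over the nuclei of a class in each library. Fewer cells of a type within a class and less RNA per cell cannot be told apart in such sums.

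Glutathione transferases attach the tripeptide glutathione to electrophilic drugs, toxins and lipid peroxidation products, which can then be exported from the cell. Gclc encodes the catalytic subunit of glutamate-cysteine ligase, the rate-limiting enzyme of glutathione synthesis, and Nqo1 reduces quinones by a step that avoids radical intermediates. Nrf2 is held in the cytoplasm and marked for degradation by Keap1. When electrophiles modify Keap1, Nrf2 accumulates, pairs with a small Maf protein and binds antioxidant response elements near genes of this kind. In liver, detoxification genes are used mostly by hepatocytes, and many are more active around the central vein than around the portal tract.

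The mu-class genes lay in one stretch on the minus strand of chromosome 3 (mm10, GENCODE vM21), with Gstm3 at chr3:107963696-107969283, Gstm2 at chr3:107981702-107986453, Gstm1 at chr3:108012255-108017973 and Gstm4 at chr3:108040408-108044894. Gsta3 lay at chr1:21240589-21265661 on the plus strand and Gstp1 at chr19:4035407-4037985 on the minus strand. Gstt1 lay at chr10:75783813-75798584 (minus), Gclc at chr9:77754535-77794485 (plus), Nqo1 at chr8:107388225-107403206 (minus) and Nfe2l2 at chr2:75675513-75704641 (minus). All 10 are annotated as protein-coding genes. Several are near copies of one another or of pseudogenes, so their reads can be split or lost. Of the 50-base windows of the longest coding transcript of Gstp1, 62.3% also occurred in Gstp2, and 23.1% of those of Gstm1, 28.8% of Gstm3 and 9.36% of Gstm2 also occurred in another Gst gene or predicted gene. Gsta3 overlaps the predicted gene Gm28836 on the opposite strand, and the strand setting of the counting is not given in the sources used here.

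RefSeq promoter windows (GRCm38.p6, 250 bases before to 50 after the start site) were found for 9 of the 10 genes. The windows shown belong to members on which the zone and age comparisons turn, each with a match to a searched motif. Each line gives the 250 bases before the start site, 5′ to 3′ on the strand of the gene, with matches to TGACNNNGC, TGAGNNNGC (both forms of the core of the antioxidant response element) or TATAAA on either strand in capitals.
Gstp1, chr19:4037913-4038162, minus strand: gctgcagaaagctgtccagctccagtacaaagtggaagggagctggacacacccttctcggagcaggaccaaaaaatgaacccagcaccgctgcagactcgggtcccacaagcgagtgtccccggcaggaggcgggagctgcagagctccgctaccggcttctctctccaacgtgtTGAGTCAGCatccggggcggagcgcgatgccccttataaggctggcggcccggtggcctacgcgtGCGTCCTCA
Gsta3, chr1:21240335-21240584, plus strand: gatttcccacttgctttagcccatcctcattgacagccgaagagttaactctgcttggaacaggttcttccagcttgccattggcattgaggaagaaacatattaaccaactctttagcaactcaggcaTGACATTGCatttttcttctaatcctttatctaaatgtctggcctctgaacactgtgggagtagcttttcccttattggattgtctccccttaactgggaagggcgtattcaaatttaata
Gstt1, chr10:75797732-75797981, minus strand: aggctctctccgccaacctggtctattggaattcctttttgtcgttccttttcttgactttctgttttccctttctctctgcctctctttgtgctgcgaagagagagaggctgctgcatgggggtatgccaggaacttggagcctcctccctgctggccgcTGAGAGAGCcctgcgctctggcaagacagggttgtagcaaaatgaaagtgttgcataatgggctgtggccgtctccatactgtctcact
Nfe2l2, chr2:75704664-75704913, minus strand: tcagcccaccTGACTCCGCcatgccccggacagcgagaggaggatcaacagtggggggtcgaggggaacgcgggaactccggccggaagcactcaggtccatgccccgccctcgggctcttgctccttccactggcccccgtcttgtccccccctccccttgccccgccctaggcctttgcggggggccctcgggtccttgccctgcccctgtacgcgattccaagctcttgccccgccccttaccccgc
Gstm1, one of its 2 windows, chr3:108017819-108018068, minus strand: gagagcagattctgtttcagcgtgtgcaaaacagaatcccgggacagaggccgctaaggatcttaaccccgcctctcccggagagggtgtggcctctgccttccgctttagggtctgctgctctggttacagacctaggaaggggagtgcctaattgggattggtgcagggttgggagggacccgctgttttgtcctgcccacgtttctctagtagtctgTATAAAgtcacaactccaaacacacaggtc
Gstp1 held 2 matches, TGAGTCAGC starting at -74 and the reverse-strand match GCGTCCTCA starting at -9. Gsta3 held TGACATTGC at -121, Gstt1 TGAGAGAGC at -89 and Nfe2l2 TGACTCCGC at -240. No match to either core form was found in the windows of Gstm1, Gstm2, Gstm3, Gstm4 or Nqo1, while TATAAA stood at -30 in Gstm1 and at -29 in Nqo1. Of 32851 RefSeq mouse promoters of the same length, 27.8% held at least 1 core form on either strand and 13.6% held TATAAA. The dioxin-response core GCGTG, found in Gstm1 and Gstp1, was in 32.4%. The RefSeq start sites of Gstt1, Gstp1 and this Gstm1 window lie inside the GENCODE genes given above, so those windows overlap the annotated gene in part or in whole, the Gstp1 matches included. These matches describe the letters of a short window and no binding was measured.

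After filtering, 7216 and 11892 nuclei remained in aged replicates 1 and 2, and 1935 and 12219 in young replicates 1 and 2. Hepatocyte-like nuclei were the main class, with 5525 and 8303 in the aged and 1371 and 8921 in the young libraries, and all 13 hepatocyte markers were detected in each. These markers were also detected in other classes, such as macrophage-like nuclei, so detection alone does not set the class apart. Pairs of libraries shared between 2 and 43 cell barcodes. The hepatocyte-like clusters were mostly made of 1 library each, so values are compared between libraries and not between clusters. Aged replicate 1 stood apart in liver genes that differ between the sexes. Plain CPM (UMIs per 1000000 of the class) of Cyp2b9, a steroid hydroxylase normally higher in female liver, was 845 in this library and 1.94 in the other aged library. It was 1.19 and 0.199 in the young ones. Y-linked transcripts were present in all 4 libraries, at 497 and 609.9 CPM in the aged and 814 and 770.01 CPM in the young (sum of 4 genes). The labels do not say whether the replicates of an age came from separate animals, so p-values measure only the spread between these libraries, which may be technical.

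The mu-class transferases and Gstp1 were lower in both aged libraries than in both young libraries in hepatocyte-like nuclei, but no gene of the 10 passed the test over all genes. Levels here are CPM scaled between libraries by TMM, and each gene is compared only with itself. Of 15393 genes tested, 5 were called at an edgeR adjusted p under 0.05 (0.0325%), and 2838 had an unadjusted p under 0.05 (18.4%). Among the 10 genes, 0 were called, and 5 had an unadjusted p under 0.05. Both aged libraries lay below both young libraries for 5 of the 10, against 25.7% of all genes tested, and above them for 2 of the 10, against 25.8% of all genes.

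Gstm1, the best measured mu-class gene, had 37.3 and 47.0 CPM in the aged libraries, against 73.8 and 298 CPM in the young. The groups did not overlap, although young replicate 1 lay nearer to both aged libraries than to young replicate 2. The means were 42.1 ± 6.88 CPM in the aged and 186 ± 158 CPM in the young libraries (SD, n = 2 each), a log2 fold change of -2.14 (SE 0.61, edgeR adjusted p = 0.18). Without young replicate 2 the change was -0.78, without young replicate 1 it was -2.81, and without aged replicate 2 it was -2.28. The DESeq2 test gave an adjusted p of 0.0159, in a fit that called far more genes of all kinds than edgeR.

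The other mu-class genes were rare. Gstm2 had 2.36 and 1.33 CPM in the aged libraries (39 and 44 UMIs), against 5.60 and 6.60 CPM in the young (35 and 73 UMIs), a log2 fold change of -1.74 (SE 0.55, adjusted p = 0.198). Gstm3 had 1.45 and 1.36 CPM in the aged libraries, against 2.72 and 6.24 in the young (log2 -1.69, SE 0.61, adjusted p = 0.226). Gstm4 had 1.21 and 1.75 CPM in the aged libraries, against 5.60 and 5.06 in the young (log2 -1.83, SE 0.54, adjusted p = 0.187). All 4 neighbouring genes thus had lower values in aged libraries with no overlap, and none passed the test in any of the fits except Gstm1.

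Gstp1, which encodes the pi-class enzyme and is known to be higher in male than in female mouse liver, had 3.45 and 29.4 CPM in the aged libraries, against 48.4 and 100.4 CPM in the young. Aged replicate 1, which rested on 57 UMIs, was far below the other 3 libraries. The log2 fold change was -2.17 (SE 0.86, edgeR adjusted p = 0.247). Without aged replicate 2 it was -4.39, and without aged replicate 1 it was -1.33. With all 4 libraries and no filter on low counts it was -2.09 (edgeR adjusted p = 6.37e-05). That fit called far more genes of all kinds than the fit with the filter. Of 12 genes of a male-biased list 0 were called. All 12 fold changes were below 0 (median log2 -1.77, against -0.022 for all genes tested). Both aged libraries lay below both young for 10 of them, against 25.7% of all genes. In all 12 the aged replicate 1 value was also under that of the other aged library. Their part in the Gstp1 value was not tested. The near-identical Gstp2 had 1.57 and 16.2 CPM in the aged libraries, against 56.8 and 17.5 CPM in the young (log2 -2.03, SE 0.97, adjusted p = 0.31), so reads of both copies were low in aged replicate 1.

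Gsta3 and Gstt1 lay on the other side. Gsta3, an alpha-class enzyme known in mice for clearing the aflatoxin epoxide, had 2108 and 1620.5 CPM in the aged libraries, against 821 and 1569.7 CPM in the young. The lower aged library and the higher young library were almost equal, and the log2 fold change of 0.64 (SE 0.54) did not pass (adjusted p = 0.567). Gstt1 had 95.6 and 66.8 CPM in the aged libraries, against 31.1 and 58.4 CPM in the young (log2 0.86, SE 0.40, adjusted p = 0.301). These groups did not overlap either.

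The genes of synthesis, quinone reduction and regulation showed no separation of the groups. Gclc had 207 and 281 CPM in the aged libraries, against 226 and 345 in the young (log2 -0.23, SE 0.37, adjusted p = 0.788). Nqo1, a standard reporter of Nrf2 activity, was at 1.94 and 2.11 CPM in the aged libraries, against 5.76 and 1.72 in the young (32 and 70 UMIs, against 36 and 19). Its log2 fold change was -0.85 (SE 0.69, adjusted p = 0.549). Nfe2l2 had 168 and 162 CPM in the aged libraries, against 120.4 and 164 in the young (log2 0.21, SE 0.32, adjusted p = 0.764).

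**Figure D1:**
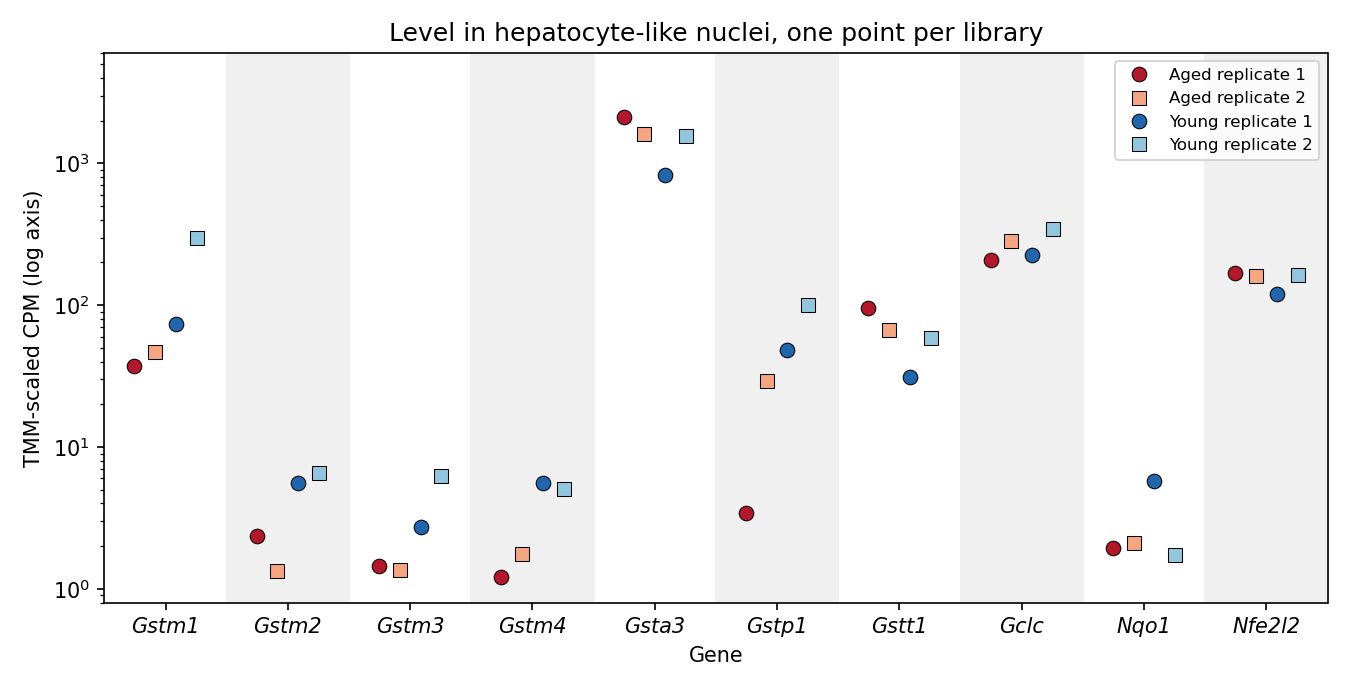
TMM-scaled CPM (log axis) of the 10 genes in hepatocyte-like nuclei, with 1 point for each of 2 aged (red) and 2 young (blue) libraries. The aged points lie below the young ones for Gstm1 to Gstm4 and Gstp1, where aged replicate 1 is at 3.45 CPM, and above them for Gsta3 and Gstt1.

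Genes around them in the pathway were described by lists chosen for their function. Among 14 tested other glutathione transferases, 0 were called with age, with 5 fold changes above and 9 below 0 (median log2 -0.36). Those with the smallest p were Gstm6, also of the mu class, with 3.39 and 2.33 CPM in the aged against 9.13 and 8.86 CPM in the young libraries, Gstt2 with 434 and 211 against 101 and 133 CPM, and Gsta2 with 36.7 and 46.6 against 25.6 and 16.7 CPM. Their adjusted p-values were 0.179, 0.187 and 0.223 (edgeR). So the mu, theta and alpha classes had the same signs in these relatives as in Gstm1, Gstt1 and Gsta3.

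Of 25 tested other Nrf2 targets, 0 were called and 18 had fold changes below 0 (median log2 -0.41). The peroxidase gene Prdx1 had 128 and 134 CPM in the aged libraries, against 319 and 266 in the young (adjusted p = 0.177). Taldo1, of the pentose phosphate pathway, had 6.65 and 13.4 CPM in the aged libraries, against 21.6 and 33.3 in the young (adjusted p = 0.191), and the haem oxygenase gene Hmox1 had 2.72 and 2.14 against 5.28 and 6.96 CPM (adjusted p = 0.237). Of 12 Nrf2 regulators 0 were called, with a median log2 of -0.17. The smallest p belonged to Maff, a small Maf partner, with 5.02 and 6.70 CPM in the aged libraries, against 3.04 and 1.90 in the young (adjusted p = 0.266), Nfe2l1, a relative of Nfe2l2 (log2 0.69, adjusted p = 0.355), and Mafk (log2 -0.64, adjusted p = 0.397). Keap1, the Nrf2 inhibitor, named after its value was seen, was at 22.4 and 30.3 CPM in the aged libraries, against 34.1 and 35.6 in the young.

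The median of 18 tested genes of glutathione synthesis and use was -0.22, again with 0 called. The smallest p belonged to Slc25a39, the mitochondrial glutathione carrier, at 19.6 and 22.4 CPM in the aged libraries, against 50.1 and 82.5 in the young (log2 -1.66, SE 0.36, adjusted p = 0.145). Oplah, a 5-oxoprolinase of the glutathione cycle, had 31.3 and 36.2 CPM in the aged libraries, against 65.5 and 90.2 in the young (adjusted p = 0.173). Gpx4, a glutathione peroxidase of membrane lipids, had 26.1 and 31.6 CPM in the aged libraries, against 38.9 and 81.4 in the young (adjusted p = 0.24). Among 9 xenobiotic receptors and their targets 0 were called, and Cyp2b10, a target of the receptor Car, had 14.6 and 7.70 CPM in the aged libraries, against 3.68 and 0.904 in the young (adjusted p = 0.191). Tiparp and Cyp1a2, both targets of the dioxin receptor, had log2 fold changes of opposite sign, 1.21 (adjusted p = 0.231) and -1.72 (adjusted p = 0.239).

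Most of the 10 genes were higher near the central vein. In each library, hepatocyte-like nuclei were ranked by how far their pericentral landmark genes exceeded their periportal ones, with none of the 10 genes among the landmarks. The ranking was cut into 3 equal groups (terciles). The highest, called pericentral, was compared with the lowest, called periportal, with the library as a block. The periportal tercile reached up to a score of -0.64 and -0.86 in the aged and -0.90 and -0.46 in the young libraries. A tercile thus need not cover the same zone in each library. Of 9 tested genes, 6 were called higher in the pericentral tercile, against 11.1% of the 12545 genes tested, and 0 were called lower, against 10.9%. In either direction 22% of all genes were called. All 9 had an unadjusted p under 0.05, against 32.8% of all genes. The ratio pointed to the pericentral tercile in all 4 libraries for 6 of the 9, against 18.6% of all genes. Nqo1 had too few counts to be tested.

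Gsta3 had 2667 and 2248 CPM in the pericentral tercile of the aged libraries and 1259 and 1893 CPM in that of the young, against 1704 and 1039.8 CPM in the periportal tercile of the aged and 311 and 1296 CPM in that of the young. The pericentral value was higher in all 4 libraries, by a log2 fold change of 1.06 (SE 0.20, edgeR adjusted p = 0.00434). The log2 ratio was widest in young replicate 1, at 2.02, and was between 0.55 and 1.11 in the others. Over 13 settings its adjusted p stayed at or under 0.013.

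The rare Gstm3 and Gstm2 had steep ratios. Gstm3 had 3.05 and 2.32 CPM in the pericentral tercile of the aged and 4.32 and 11.4 CPM in that of the young libraries, against 1.19 and 0.863 CPM in the periportal tercile of the aged and 2.81 and 3.85 CPM in that of the young (log2 1.35, SE 0.26, adjusted p = 0.00452, and 0.0521 without young replicate 2). Gstm2 differed by a log2 fold change of 1.06 (SE 0.29, adjusted p = 0.0253), with ratios above 0 in all 4 libraries. Its call was lost without young replicate 1 (adjusted p = 0.0716), without aged replicate 1 (0.109) and with DESeq2 (0.0505). Gstm4, at 0.81 (SE 0.33), was not called (adjusted p = 0.123), and its ratio was below 0 in young replicate 1, at -0.23.

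Gstm1, Gclc and Nfe2l2 had shallow ratios. Gstm1 differed by 0.36 (SE 0.11, adjusted p = 0.0384), with log2 ratios of -0.016 and 0.69 in the aged and 0.45 and 0.30 in the young libraries. This call was lost without young replicate 1 (adjusted p = 0.0943), young replicate 2 (0.0858) or aged replicate 2 (0.175), and with DESeq2 (0.0648). Gclc differed by 0.46 (SE 0.12, adjusted p = 0.0234), with 231 and 388 CPM in the pericentral tercile of the aged and 261 and 373 in that of the young libraries, against 206 and 206 in the periportal tercile of the aged and 177 and 327 in that of the young. Its call was lost without young replicate 1 (adjusted p = 0.0745) or aged replicate 2 (0.0724).

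Nfe2l2 was the most even. Its log2 ratio was 0.30 and 0.41 in the aged and 0.34 and 0.34 in the young libraries, with a fitted difference of 0.35 (SE 0.067, adjusted p = 0.00462). It had 185 and 189 CPM in the pericentral tercile of the aged and 131 and 192 CPM in that of the young libraries, against 150.04 and 142 CPM in the periportal tercile of the aged and 103 and 152 CPM in that of the young. The call held in all 13 settings, with adjusted p at or under 0.0267.

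**Figure D2:**
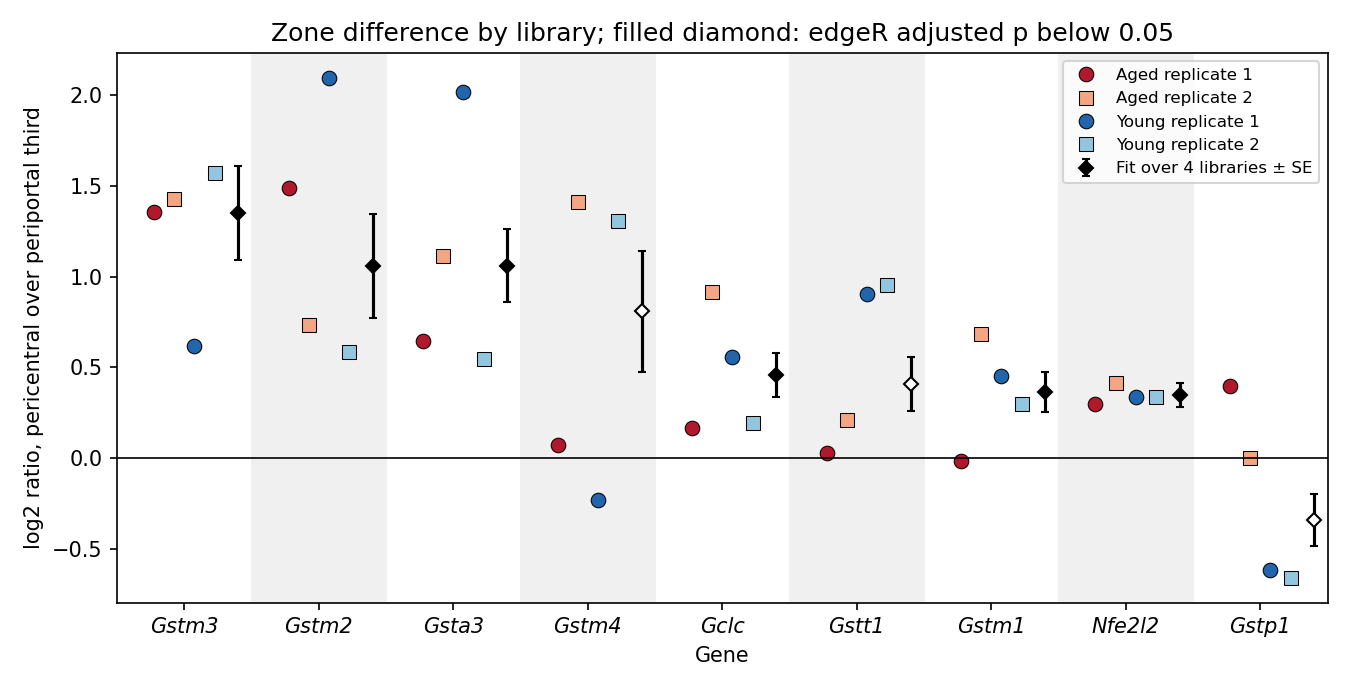
Log2 ratio of the pericentral over the periportal tercile for 9 genes, with 1 point per library (aged red, young blue) and the fitted value ± SE as a diamond, filled where the edgeR adjusted p was below 0.05. Gstm3, Gstm2 and Gsta3 have the highest called values, Nfe2l2 the tightest points, and Gstp1 is the only gene with a fitted value below 0.

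Depth and the mitochondrial share also differed between the terciles. The median number of UMIs per nucleus was 2356 and 3030.0 in the pericentral tercile of the aged and 3747 and 979 in that of the young libraries, against 2725 and 3501 in the periportal tercile of the aged and 3223 and 923 in that of the young. The median mitochondrial share was 0.641% and 0.305% in the pericentral tercile of the aged and 0.223% and 0.498% in that of the young libraries, against 0.673% and 0.374% in the periportal tercile of the aged and 0.359% and 0.643% in that of the young. Gsta3 was lower in the tercile of nuclei with the most mitochondrial RNA than in the tercile with the least, by a ratio of 0.75 and 0.64 in the aged and 0.73 and 0.86 in the young libraries. Gstm1 was higher in it, with ratios of 2.10 and 1.66 in the aged and 1.91 and 2.09 in the young libraries. The albumin transcript Alb, set beside them, had ratios of 3.73 and 2.58 in the aged and 1.69 and 1.98 in the young libraries. The zone fit was also run on nuclei with at least 1000 UMIs, and on those with at most 1% mitochondrial UMIs. Over 13 settings, these included, the log2 difference ran between 0.78 and 1.23 for Gsta3. It ran between 0.25 and 0.56 for Gstm1. Beyond this, the part of depth and of the mitochondrial share in the zone values was not tested.

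Other genes of the pathway also differed by zone. Of 24 tested other Nrf2 targets, 9 were called higher in the pericentral tercile and 1 lower, against 11.1% higher and 10.9% lower of all genes. Of the 12 male-biased genes, a list outside the pathway, 6 were called higher and 3 lower. The 5 Nrf2 targets with the smallest p were Blvrb, a biliverdin reductase (log2 2.14), the exporter genes Abcc4 (5.11) and Abcc2 (0.74), Entpd5, an endoplasmic reticulum nucleotidase (1.34), and the peroxiredoxin gene Prdx6 (0.55). All 5 were higher in the pericentral tercile of all 4 libraries. The Nrf2 target called lower, named after its value was seen, was the ferritin heavy chain gene Fth1 (-0.34). Among 13 other glutathione transferases, Gstt2 (0.33), Mgst1 (0.36) and Gstt3 (0.69) were called higher and 0 lower. Median log2 differences were 0.27 for these Nrf2 targets and 0.30 for these transferases, against -0.016 for all genes.

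Of 12 Nrf2 regulators, 3 were called higher and 1 lower in the pericentral tercile, against 11.1% and 10.9% of all genes. Those called higher were Mafg, a small Maf partner of Nrf2 (0.30), the kinase gene Gsk3b (0.29) and the autophagy receptor gene Sqstm1 (0.30). Rbx1, of the Keap1 ubiquitin ligase, was called lower (-0.37). Of 17 genes of glutathione synthesis and use, 5 were called lower and 1 higher in the pericentral tercile (median log2 -0.079), against 10.9% and 11.1% of all genes. Those named were Cbs (-0.86) and Cth (-0.45), of the route to cysteine, Gss, the glutathione synthetase gene (-0.55), and Gnmt (-0.38), with Oplah (0.36) as the one called higher. Gss had 148 and 80.5 CPM in the pericentral tercile of the aged and 42.7 and 66.2 CPM in that of the young libraries, against 265 and 95.5 CPM in the periportal tercile of the aged and 60.7 and 99.0 CPM in that of the young. So Gclc and Gss, which catalyse successive steps, were called in opposite directions. Of 8 xenobiotic receptors and targets, the receptor genes Ahr (2.60), Nr1i3 (1.93) and Rxra (0.70) were called higher and Tiparp (-0.61) lower.

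Whether the age difference itself changed along the lobule was tested as a zone by age term, in which 6 of 12545 genes were called (0.0478%) and 0 of the 9 members. The 2 members with an unadjusted p under 0.05 (6.03% of all genes) were Gstt1 and Gstp1. Gstt1 was higher in the pericentral tercile of the young libraries, by log2 ratios of 0.90 and 0.95, and nearly even in the aged libraries, at 0.029 and 0.21. It had 104 and 72.6 CPM in the pericentral tercile of the aged and 38.9 and 80.9 CPM in that of the young, against 102 and 62.6 CPM in the periportal tercile of the aged and 20.8 and 41.8 CPM in that of the young. The zone by age term was -0.81 (SE 0.16, unadjusted p = 0.000926, adjusted p = 0.27). It was called with no filter on low counts (adjusted p = 0.00433) and in no other of 13 settings. Without that filter far more genes of all kinds were called.

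Gstp1 ran the other way. It was lower in the pericentral tercile of the young libraries, at log2 ratios of -0.62 and -0.66, while the aged libraries were at 0.40 and 0.00094. Aged replicate 1 had 4.49 and 3.41 CPM in the pericentral and periportal terciles, from 25 and 20 UMIs, so its ratio is loose. The term was 0.70 (SE 0.18, unadjusted p = 0.00434, adjusted p = 0.499). The remaining 7 genes had adjusted p between 0.928 and 1. Without the term, Gstt1 differed between zones by 0.41 (SE 0.15, adjusted p = 0.0811) and Gstp1 by -0.34 (SE 0.14, adjusted p = 0.132). Gstt1 was called without aged replicate 1 (0.58, adjusted p = 0.0261), and Gstp1 without aged replicate 2 (-0.52, adjusted p = 0.0438).

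**Figure D3:**
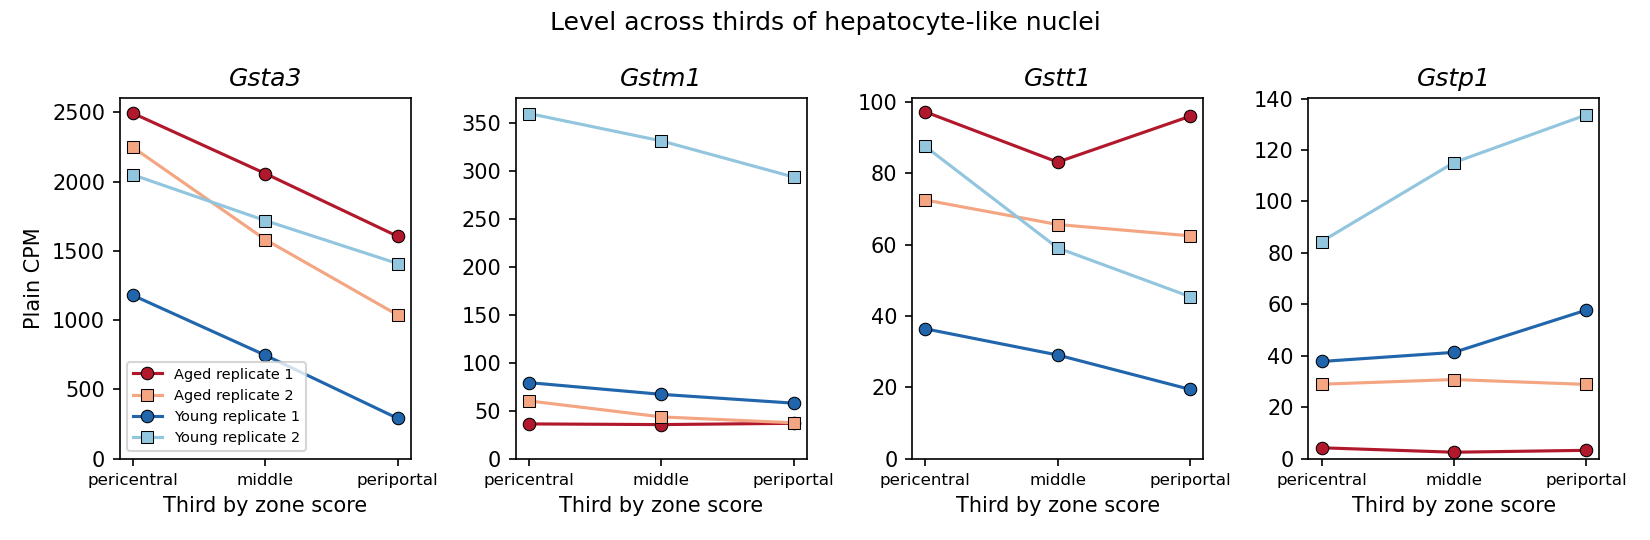
Plain CPM (no scaling between libraries) of Gsta3, Gstm1, Gstt1 and Gstp1 in the pericentral, middle and periportal tercile of hepatocyte-like nuclei, 1 line per library. Gsta3 is lowest in the periportal tercile in all 4 libraries, Gstt1 is lowest there in both young libraries, and Gstp1 is higher in the periportal than in the pericentral tercile of both young libraries. The middle tercile of aged replicate 1 had a median of 1294 UMIs per nucleus and a median mitochondrial share of 1.67%. Its pericentral and periportal terciles had 2356 and 2725 UMIs and shares of 0.641% and 0.673%.

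Other classes of nuclei held much hepatocyte RNA, which bears on every level outside hepatocytes. The plain CPM of 12 hepatocyte transcripts, such as Alb and Apob, was taken as a percentage of that in hepatocyte-like nuclei of the same library. The median of the 12 was 38.7% and 63.3% in stellate/fibroblast-like nuclei of the aged libraries, against 80.6% and 64.1% in those of the young. It was 59.7% and 78.8% in endothelial-like nuclei of the aged libraries, against 95.6% and 71.0% in those of the young. In macrophage-like nuclei it was 58.5% and 78.7% in the aged libraries, against 92.5% and 78.9% in the young. A member inside the range of the 12 therefore cannot be told apart from such hepatocyte RNA. The range was wide in some sums, as in cholangiocyte-like nuclei of young replicate 2, at 68.2% to 184%. Counts over 24 sums of a class in a library, B, T/NK, cholangiocyte and mesothelial nuclei included, were made for each member.

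Gclc was within that range in 20 of the 24 sums, above it in 4 and below it in 0. Gsta3 was within it in 13, below it in 10 and above it in 1. In stellate/fibroblast-like nuclei Gsta3 was at 8.99% and 22.4% of the hepatocyte-like level in the aged libraries, below the lowest of the 12 transcripts, at 14.2% and 29.4%. It was at 73.3% and 74.9% in the young.

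Other members were above the range in some classes. Gstm1 was above it in 12 of 24 sums and below it in 1. In stellate/fibroblast-like nuclei it was at 247% and 165% of the hepatocyte-like level in the aged libraries, where the highest of the 12 was 69.7% and 98.0%, and at 119% and 74.3% in the young, where the highest was 88.9% and 75.0%. Gstt1 in these nuclei was at 84.1% and 99.2% in the aged and 124% and 122% in the young libraries, above the range in all 4. Over all 24 sums it was above in 7, below in 5 and within in 12.

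Nfe2l2 was above the range in 13 of 24 sums and below it in 1. In macrophage-like nuclei it was at 209.5% and 133% of the hepatocyte-like level in the aged libraries, where the highest of the 12 was 79.3% and 87.0%. In the young libraries it was at 118% and 91.3%, where the highest was 117% and 96.9%. In endothelial-like nuclei it was at 111% and 98.3% in the aged and 119.9% and 91.8% in the young libraries, above the range in 3 of the 4. Gstp1 was above in 11 sums and below in 8, but some of these positions rest on few UMIs and are loose. Over the 4 libraries it had 28 UMIs in B, 13 in cholangiocyte and 4 in mesothelial nuclei. Gstm2, Gstm3, Gstm4 and Nqo1 had too few UMIs outside hepatocytes for such a reading.

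**Figure D4:**
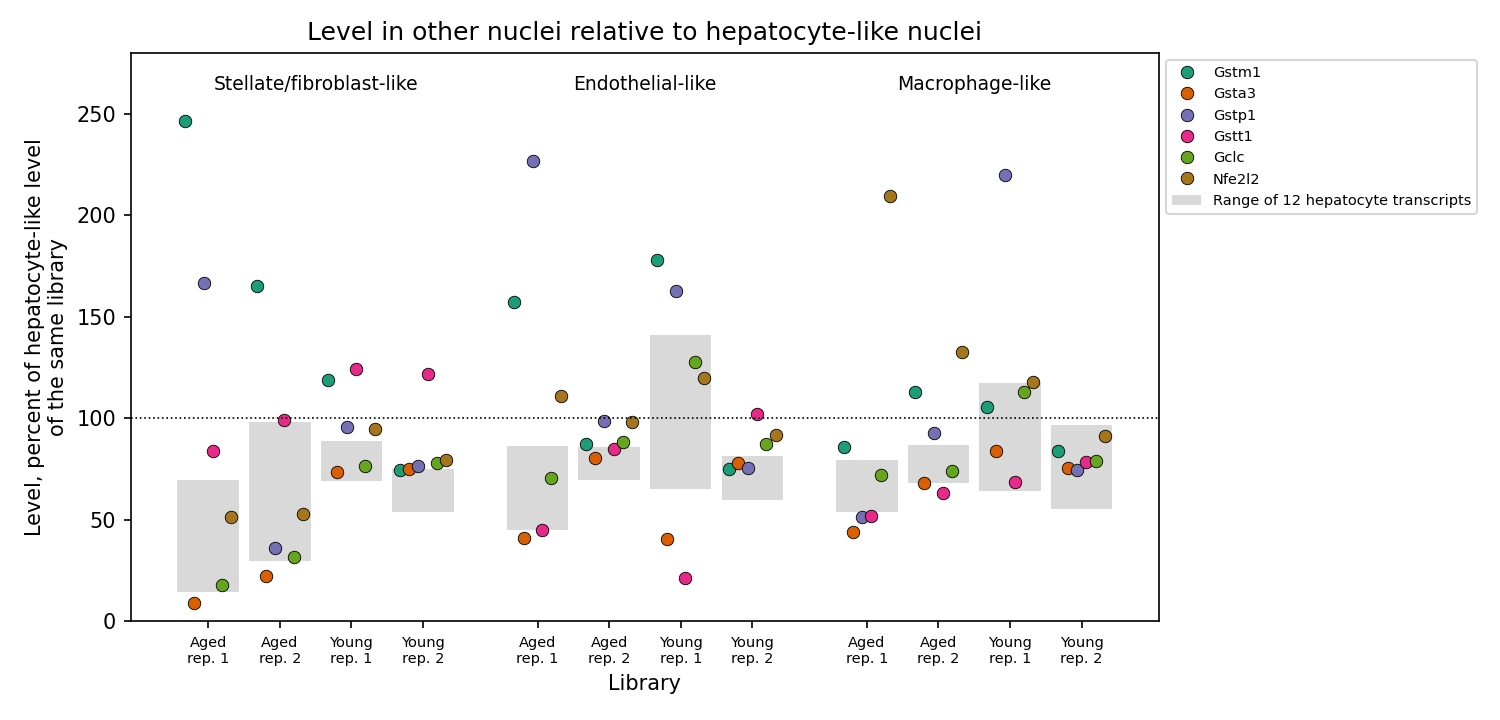
Level of 6 genes in 3 classes as a percentage of the hepatocyte-like level of the same library, with the range of 12 hepatocyte transcripts as a grey bar. Gstm1 and Gstt1 in stellate/fibroblast-like nuclei of the aged libraries and Nfe2l2 in macrophage-like nuclei of the aged libraries stand above the bars, and Gsta3 mostly stands in or under them.

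In stellate/fibroblast-like nuclei, the vitamin A storing and matrix producing cells of the sinusoid, 2 of 7 tested members were called lower with age, against 5.94% of 12236 genes tested, and 0 were called higher, against 8.93%. In either direction 14.9% of all genes were called. Gstm3, Gstm4 and Nqo1 had too few counts to be tested. Of the 7, 3 had an unadjusted p under 0.05, against 32.7% of all genes, and both aged libraries lay below both young ones for 4, against 31.8%, and above for 0, against 32.2%. Gstp1 had 5.78 and 10.9 CPM in the aged libraries, against 46.1 and 77.0 CPM in the young (log2 -2.70, SE 0.48, edgeR adjusted p = 0.0167). These values rested on 2 and 15 UMIs in the aged and 97 and 194 UMIs in the young libraries. Gclc had 37.6 and 92.6 CPM in the aged libraries, against 173 and 270.1 CPM in the young (log2 -1.68, SE 0.46, adjusted p = 0.0463). Gsta3 had 191 and 376 CPM in the aged libraries, against 599.95 and 1178 CPM in the young, and was just outside the threshold (log2 -1.63, SE 0.49, adjusted p = 0.0602, and 5.90e-05 without young replicate 1). Gstm1 was at 92.5 and 80.2 CPM in the aged libraries, against 87.5 and 222 in the young (adjusted p = 0.245, and 0.00549 without young replicate 1), and Gstt1 at 81.0 and 68.5 against 38.5 and 71.4 CPM (adjusted p = 0.498).

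The median of the hepatocyte transcripts given above was lower in these nuclei in aged replicate 1 than in the other 3 libraries, and close between the replicates numbered 2. The sum of 13 hepatocyte markers, in contrast, was lower in both aged libraries, at 9106 and 8935 CPM, against 17138 and 15362 CPM in the young. In hepatocyte-like nuclei that sum was 24572 and 16820 CPM in the aged and 19250 and 21946 CPM in the young libraries. The sum of 12 stellate and fibroblast markers was 10120 and 10049 CPM in the aged libraries, against 1486 and 2866 CPM in the young. The 12 stellate and fibroblast markers were detected in all 4 libraries. They were also detected in hepatocyte-like nuclei, so detection alone does not set this class apart. Cluster 5 held 312 and 1151 of these nuclei in the aged libraries, and cluster 1 held 271 and 1417 of them in the young libraries, out of 319 and 1230 in the aged and 374 and 1521 in the young. The part of these differences in the 2 calls was not tested. Leaving out nuclei with at least 50% of the hepatocyte level of those transcripts left 5840 genes to test and 0 calls by edgeR (923 at an unadjusted p under 0.05). Gclc was then at -1.97 (adjusted p = 0.279), and Gstp1 had too few counts to be tested. In the aged libraries Gclc was at 18.0% and 31.8% of the hepatocyte-like level, within the range of the 12 transcripts, against 76.7% and 78.2% in the young, where it was within the range in replicate 1 and above it in replicate 2. The Gclc adjusted p was also 0.0527 with the replicate number as a block, 0.144 without young replicate 2 and 0.195 without aged replicate 1. The Gstp1 log2 fold change was between -3.46 and -2.27 over the 8 settings that could be fitted. Its aged values rest on 2 UMIs in replicate 1 and 15 in replicate 2.

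In endothelial-like nuclei edgeR called 0 of 9973 genes (0%), with 614 at an unadjusted p under 0.05 (6.16%), and 0 of 6 tested members, 2 of them at an unadjusted p under 0.05. Both aged libraries lay below both young ones for 3 of the 6, against 18.7% of all genes, and above for 1, against 20.4%. Gstm2, Gstm3, Gstm4 and Nqo1 had too few counts to be tested in this class and in the next. Gstm1 had 59.2 and 44.1 CPM in the aged libraries, against 122 and 246 CPM in the young (log2 -1.91, SE 0.46, adjusted p = 0.746), and Gstp1 had 7.89 and 31.1 CPM against 73.3 and 83.2 CPM (log2 -1.85, SE 0.60, adjusted p = 0.778). Gstp1 rested on 4 UMIs in aged replicate 1. Both genes had the sign they had in hepatocyte-like nuclei. These sums hold hepatocyte RNA of the same libraries, so the shared sign is not independent evidence. Over 8 settings the log2 fold change ran between -2.29 and -1.29 for Gstm1 and between -3.34 and -1.33 for Gstp1. In macrophage-like nuclei 8 of 8061 genes (0.0992%) and 0 of 6 members were called, with 3 members at an unadjusted p under 0.05, against 15% of all genes. Both aged libraries lay below both young ones for 3 of the 6, against 23.7% of all genes, and above for 1, against 24.3%.

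Gstm1 in macrophage-like nuclei had 32.9 and 55.2 CPM in the aged libraries, against 79.7 and 280.1 in the young (log2 -2.11, SE 0.55, adjusted p = 0.169). Gstp1 had 1.83 and 28.3 CPM there in the aged libraries (1 and 20 UMIs), against 109 and 84.0 in the young (log2 -2.54, SE 0.76, adjusted p = 0.193). With no filter on low counts both were called (edgeR adjusted p = 0.00104 for Gstm1 and 0.0016 for Gstp1). That fit called far more genes of all kinds than the fit with the filter. Over 8 settings the log2 fold change ran between -2.65 and -0.85 for Gstm1 and between -5.45 and -1.69 for Gstp1. Nfe2l2 in these nuclei had 362 and 224 CPM in the aged libraries, against 145 and 168 CPM in the young (log2 0.89, SE 0.37, unadjusted p = 0.0402, adjusted p = 0.307). Its groups did not overlap, and the sign was the same in every fit without 1 library. The sum of 10 macrophage markers in these nuclei was 3405 and 1924 CPM in the aged libraries, against 1149 and 1897 CPM in the young, and its part in the Nfe2l2 value was not tested.

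**Figure D5:**
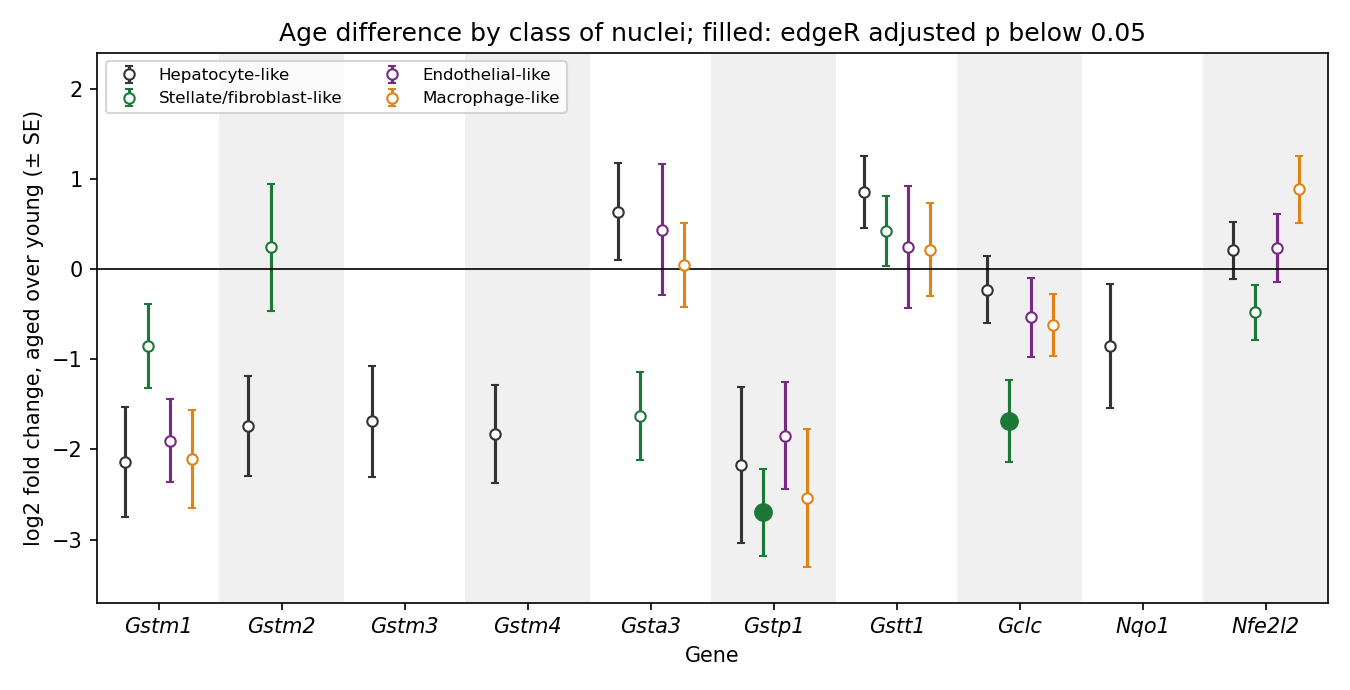
Log2 fold change of aged over young libraries with its SE for each gene in 4 classes of nuclei, filled where the edgeR adjusted p was below 0.05. Gstp1 and Gclc in stellate/fibroblast-like nuclei are the called values, and Gstm1 and Gstp1 are below 0 in all 4 classes. The other classes hold hepatocyte RNA of the same libraries, so the signs are not independent.

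The pattern of each member across sums was also set beside that of other genes, by Pearson correlation of log2(CPM + 1). Of 10424 genes with a high enough mean level, those with predicted names (Gm or Rik) were left out. The 36 sums were 12 of hepatocyte terciles and 24 of other classes. These sums share libraries and free RNA, so the values are a description. Gsta3 was most like Ppara (r = 0.94), Adh1 (0.92) and Sord (0.91). Gclc was most like Dgat2 (0.92), Nr1i2 (0.92) and Slc12a7 (0.92), Gstm1 most like Ddx39b (0.92), Hmg20b (0.91) and Lonp1 (0.91), and Gstp1 most like Tsku (0.90), Csrnp1 (0.89) and Taco1 (0.88). Gstt1, at 0.80 to Tm7sf3, and Nfe2l2, at 0.70 to AC149090.1, had no near match, and the highest values for the rare Gstm2, Gstm3, Gstm4 and Nqo1 were between 0.69 and 0.74.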

How the data were processed

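For each of 4 libraries the authors deposited a matrix of UMI counts. Per the submitters' processing notes, Cell Ranger 7.1.0 and the mm10 build were used. The annotation release was not given in the sources used here. Barcodes with at least 500 UMIs, 300 genes and at most 5% mitochondrial UMIs were kept. Doublets were removed by Scrublet score at 0.8% per 1000 nuclei, since its automatic threshold marked 0. Nuclei were clustered with scanpy 1.11.5 (2000 variable genes, 30 components, 20 neighbours, Leiden resolution 1) and clusters named from markers, so class names are rebuilt. The floor on hepatocyte markers was lowered after the data were seen, to keep a cluster led by Glul. Totals of deposited counts were 38457709 and 54777101 UMIs in aged replicates 1 and 2 and 11799751 and 17809372 in young replicates 1 and 2.

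For each class, the raw counts of its nuclei were added up within a library and tested with edgeR 4.0.16 (filterByExpr, TMM, quasi-likelihood F test, Benjamini-Hochberg over all genes tested, threshold 0.05), where each library had at least 20 nuclei. The script was tested on simulated data. The 2 libraries of an age differed by more than counting noise (chi-square over its degrees of freedom 114 aged, 61.0 young). Zone terciles used 11 pericentral and 12 periportal landmarks. The 10 genes, the lists and the tests were chosen with earlier results of these data known. All 10 are described, and from each list the called genes (at most 5 by p) or the 3 with the smallest p are named. Alternatives were DESeq2 1.42.0, other size factors, no filter on low counts, other nucleus filters, a replicate block, and leaving out each library, where a lone library was assumed to vary like the other age. T/NK-like nuclei were not tested, since young replicate 1 held 18.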

Additional observations from a re-analysis of the deposited data

Results flagged for a closer look

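Gsta3 had opposite signs with age in hepatocyte-like and stellate/fibroblast-like nuclei, with no overlap between the ages in either class. The log2 fold change was 0.64 in hepatocyte-like and -1.63 in stellate/fibroblast-like nuclei. In hepatocyte-like nuclei the lower aged value, 1620 CPM, was almost equal to the higher young value, 1570 CPM (edgeR adjusted p = 0.567). In stellate/fibroblast-like nuclei Gsta3 was within the range of the 12 hepatocyte transcripts in the young libraries and below it in the aged. Its level there cannot be told apart from hepatocyte RNA. The difference between these classes was not tested.

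Nfe2l2 was lower in both aged than in both young libraries in stellate/fibroblast-like nuclei, with a log2 fold change of -0.48, and higher in both aged libraries in endothelial-like nuclei (0.23) and in macrophage-like nuclei (0.89). In stellate/fibroblast-like nuclei it had 86.7 and 88.2 CPM in the aged libraries, against 114 and 131 CPM in the young. In endothelial-like nuclei it had 187 and 171 CPM in the aged libraries, against 134 and 166 CPM in the young. The 10 macrophage markers summed to 3405 and 1924 CPM in macrophage-like nuclei of the aged libraries, against 1149 and 1897 CPM in the young. Neither difference between classes was tested. None of these 5 fold changes passed the test over all genes within its class (edgeR).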

How the results depend on the processing

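The counts of called genes depended on single libraries and on the filter, and the cause was not tested. In hepatocyte-like nuclei the 5 genes called with age became between 214 and 1385 without 1 library, 1479 with no filter on low counts, 819 with DESeq2, 11 with a replicate block, 11 with a crossed replicate block added after the data were seen (same-numbered libraries had a correlation of deviations of -0.19), 2 at no more than 1% mitochondrial UMIs and 3 with equal numbers of nuclei. Members called were 0 to 2 without 1 library, 2 with no filter and 1 with DESeq2, against 0. The labels do not say that equal replicate numbers mark a pairing.

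In stellate/fibroblast-like nuclei the 1820 genes became 3117 with no filter, 716 with the replicate block, between 1332 and 2203 without 1 library, and 0 without nuclei rich in hepatocyte RNA. The 2 members called became 1 with the block, 0 without such nuclei, and 1 to 4 without 1 library. In endothelial-like nuclei the count of 0 became 131 genes and 1 member with no filter, 1 gene with the block, and 0 to 485 genes and 0 to 2 members without 1 library. In macrophage-like nuclei the 8 genes became 379 with 2 members with no filter, 4 with the block, and 56 to 538 with 0 to 2 members without 1 library. Removing nuclei rich in hepatocyte RNA was not run for endothelial-like and macrophage-like nuclei, since fewer than 20 remained in a library, and no alternative was run for T/NK-like nuclei.

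The 2754 genes differing by zone became 1814 to 2515 without 1 library, with 3 to 6 members called. For zone by age, the 6 genes became 195 with 1 member with no filter, 3 to 102 without 1 library, 18 with DESeq2, 1 at no more than 1% mitochondrial UMIs, 0 at 1000 UMIs or more (681 at an unadjusted p under 0.05, edgeR) and 0 without the Glul cluster (695).

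Fold changes with age that changed sign were those of Nqo1 (0.25 without young replicate 1, range without 1 library -1.47 to 0.25) and Gclc (0.14 without young replicate 2, -0.49 to 0.14) in hepatocyte-like nuclei. In stellate/fibroblast-like nuclei Gstt1 was -0.047 without young replicate 1 (range to 0.93) and -0.36 without nuclei rich in hepatocyte RNA, and Gstm2 was -0.24 without young replicate 2 and -0.068 without aged replicate 2 (range to 0.84). In endothelial-like nuclei Gsta3 was -0.25 and Gstt1 -0.32 without young replicate 1, and Gstt1 -0.13 without aged replicate 2, with highest values of 1.85 and 3.07. In macrophage-like nuclei Gsta3 was -0.33 and Gstt1 -0.12 without young replicate 1, and Gsta3 -0.097 without aged replicate 2, with highest values of 0.57 and 1.10. The zone differences of the 9 members kept their sign in all alternatives run.

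With 2 libraries per age, rare genes, namely Gstm2, Gstm3, Gstm4 and Nqo1, rest on 17 to 73 UMIs per library in hepatocyte-like nuclei. Young replicate 1 held the fewest nuclei and young replicate 2 the fewest UMIs per nucleus.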

Other observations

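Among 25 tested other Nrf2 targets in stellate/fibroblast-like nuclei, 9 were called lower and 1 higher with age by edgeR, against 5.94% of all genes lower and 8.93% higher. Their median log2 was -1.17. Lists of other function also had genes called lower there, namely 6 of 12 male-biased genes (median log2 -2.60) and 4 of 8 xenobiotic receptors and targets (-0.87). So had 5 of 16 genes of glutathione synthesis and use and 3 of 11 other transferases, against 0 of 11 Nrf2 regulators. In these lists 0 were called higher. Among the Nrf2 targets the count is thus not particular to them. The Nrf2 target called higher, named after its value was seen, was Slc7a11, which encodes the cystine importer that feeds glutathione synthesis. It had 46.3 and 47.4 CPM in the aged libraries, against 0.951 and 4.36 CPM in the young (log2 4.05, SE 0.60, adjusted p = 0.0151). In hepatocyte-like nuclei the same gene had 1.39 and 0.876 CPM in the aged libraries, against 0.641 and 0.452 CPM in the young (log2 1.06, SE 0.71, adjusted p = 0.462). The sign was the same in both classes, and the difference between them was not tested.

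The Nrf2 targets called lower included Prdx1, with 54.9 and 76.5 CPM in the aged libraries, against 309 and 207 CPM in the young. Me1, an NADPH source, had 69.4 and 106 CPM in the aged libraries, against 270 and 449 CPM in the young. Gclm, the modifier subunit that pairs with Gclc, was named after its value was seen and had 23.1 and 31.3 CPM in the aged libraries, against 66.1 and 113 CPM in the young (adjusted p = 0.0349).

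Other measures of these nuclei also differed between the libraries. The 12 stellate and fibroblast markers summed to 10120 and 10049 CPM in the aged libraries, against 1486 and 2866 CPM in the young, and most nuclei were in cluster 5 in the aged and cluster 1 in the young libraries. The median of 12 hepatocyte transcripts was 38.7% and 63.3% of the hepatocyte level in the aged libraries, against 80.6% and 64.1% in the young. The sum of 13 hepatocyte markers was 9106 and 8935 CPM in the aged libraries, against 17138 and 15362 CPM in the young. Without nuclei rich in hepatocyte RNA, 0 of 5840 genes were called (923 at an unadjusted p under 0.05, edgeR). The part of these measures in the calls was not tested.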
